A study of Drosophila melanogaster with 5 samples.

Results

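The comparison set embryos at stages 8-9 (S8-9), when the germ band extends, against syncytial blastoderm embryos at stages 2-3 (S2-3), for the genes of a cDNA library subtracted for transcripts of the gastrula. Members were all features of the library with an annotated gene identifier, 259 genes of the 310 features printed, and the 36 introns and 15 intergenic regions served only as background. Both groups were pools of hand-selected wild-type Canton-S embryos of Drosophila melanogaster, with no mutation, transgene or treatment in either, and the labels set them apart by age alone. Each interval of the series, 5 in all, was deposited as 1 sample hybridized to 4 nylon membranes, so that 8 of the 20 membranes entered this comparison. Membranes A, B and C shared one layout of 294 or 295 library clones, each spotted in duplicate, while D held 579 clones with several for many genes. The probes were radioactively labeled cDNA amplified from whole embryos, so a rise in all cells cannot be told apart from a rise in the number of cells of one type. The methods give 2 independent labeling and hybridization events but not which membranes belong to each, nor whether membranes of one stage used separate embryo pools. Every p-value therefore measures only the spread between membranes.

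A level is the net signal of a gene divided by the median RP49 net signal of its membrane (RP49 encodes a ribosomal protein). It is averaged over those clones of the gene that were kept on that membrane. The clones behind a level can therefore differ between the 2 intervals. A difference is the log2 level at S8-9 minus that at S2-3 on membranes of the same letter, so that 1 stands for 2-fold. A spot counted only when its signal reached the local background plus 1 background SD, and genes measured in both intervals on at least 2 letters were tested with limma. The p-values were adjusted over all features tested by the method of Benjamini and Hochberg, and an adjusted p under 0.05 is written as higher or lower. SE is the standard error of the fit, SD is the spread between letters and n is the number of letters.

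Between the 2 intervals the embryo passes from nuclei dividing in a common cytoplasm, supplied almost wholly with maternal transcripts, to a layered embryo in which its own genome is active. Cells form around the nuclei at stage 5, the mesoderm and gut invaginate in gastrulation, and the germ band then lengthens along the anterior-posterior axis while cells exchange neighbors and the first neuroblasts leave the ectoderm. The pair-rule and Hox genes pattern the axis, Notch signaling selects neuroblasts, and dosage compensation of the male X chromosome begins. The library was made by subtracting S2-3 cDNA from S6-7 cDNA, so it was enriched beforehand for transcripts that are scarce at S2-3.

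Printed control genes differed in how often they passed. Spots of sna (snail), a mesoderm regulator, cleared the background in 0 of 34 cases at S2-3 and in 3 of 34 at S8-9, and those of twi (twist), which acts above it, in 5 and 12 of 34. Spots of tin (tinman), needed for heart and visceral muscle, passed in 8 and 22 of 34. The maternal gene dorsal passed in 17 and 5 of 34. Spots of Sry-alpha, which acts in cellularization, passed in 0 and 4 of 30, and fog, needed for the shape change of invaginating cells, in 0 and 0 of 34. The library's own entry of Sry-alpha did measure 0.190, 0.254, 0.122 and 0.397 times RP49 on A to D at S8-9. At S2-3 that entry was measured on D alone, at 0.194. Actin spots, relative to RP49, differed by 0.37 ± 0.49 (SD, n = 4) and tubulin spots by 1.35 ± 1.03 (SD, n = 4), with tubulin above 0 on A, C and D and at -0.17 on B.

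The membranes differed in how much they recorded. At S2-3 the share of library spots that passed was 64.8%, 44.4%, 22.7% and 40.8% on A, B, C and D, and at S8-9 it was 71.8%, 57.8%, 60.2% and 90.2%. Median RP49 signals, in arbitrary units, fell between 0.0315 and 0.132 at S2-3 and between 0.0313 and 0.0755 at S8-9. Blank solvent spots passed in at most 1.39% of cases per membrane at S2-3 and in up to 11.8% at S8-9. At least 2 membranes measured 155 genes at S2-3 and 203 genes at S8-9. The part of these differences in the results was not tested.

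Most genes of the library lay higher at S8-9 relative to RP49. Of 132 genes tested, 37 were higher and 1 was lower, and 94 passed in neither direction. Over all 143 features tested, these genes included, the share higher was 30.1% and the share lower 0.699%. Of the 11 introns and intergenic regions among them, 6 were higher. The mean difference was above 0 for 115 genes and below 0 for 17, with a median of 0.94 and quartiles of 0.38 and 1.46. Every letter measured was above 0 for 82 genes, every letter was below 0 for 5, and 45 had both signs. At an unadjusted p under 0.05 there were 63 genes higher and 1 lower. Taken as 4 against 4 membranes with no pairing by letter, 16 genes were higher and 1 lower, and 13 of these 16 were among the 37. Calls also depended on single letters, since 5 genes were higher without letter A, 0 without B, 38 without C and 20 without D.

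The choice of scale set the direction of the bulk. Under the 75th percentile of the library spots of each membrane in place of RP49, the median gene lay at -0.32, 6 genes were higher and 14 lower, and the shares over all features were 4.9% and 9.79%. The 6 genes were Tom, skpA, sala, roX1, Thor and Lac, and each was also higher relative to RP49. The median difference of 0.94 thus stands as the shift of the library relative to RP49, and 36 of the 37 genes called lay above it. The exception was Oda, which encodes an ornithine decarboxylase antizyme, at 0.79 (SE 0.19, n = 4, adjusted p = 0.037).

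**Figure D1:**
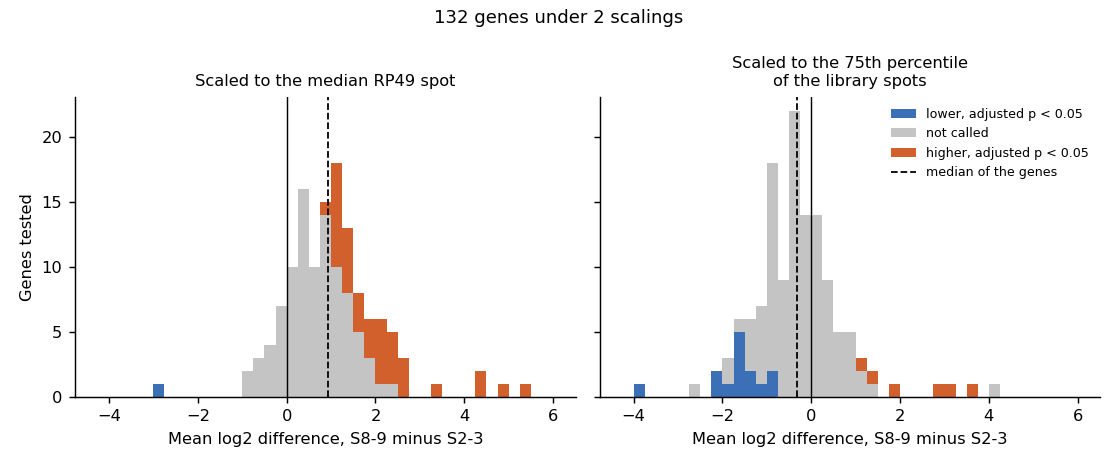
Histograms of the mean log2 difference of the 132 genes tested, S8-9 minus S2-3, scaled to RP49 on the left and to the 75th percentile of the library spots on the right, with genes that passed the test in color and the median dashed. The bulk moves from a median of 0.94 to -0.32, while 6 genes stay past the test on the high side of both.

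The letters differed in the size of the shift. The median difference was 0.79 on A (140 genes), 0.92 on B (85 genes), 0.07 on C (58 genes) and 1.47 on D (173 genes), and 75.7%, 85.9%, 50% and 94.8% of genes lay above 0. Letter C, where fewest spots passed at S2-3, had the median nearest 0. Across genes, which are not independent replicates, the Pearson correlation of the differences was 0.89 between A and B (78 genes), 0.66 between A and C (52 genes), 0.52 between A and D (104 genes) and 0.19 between C and D (42 genes). Membranes A to C share their clones, and D adds others.

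**Figure D2:**
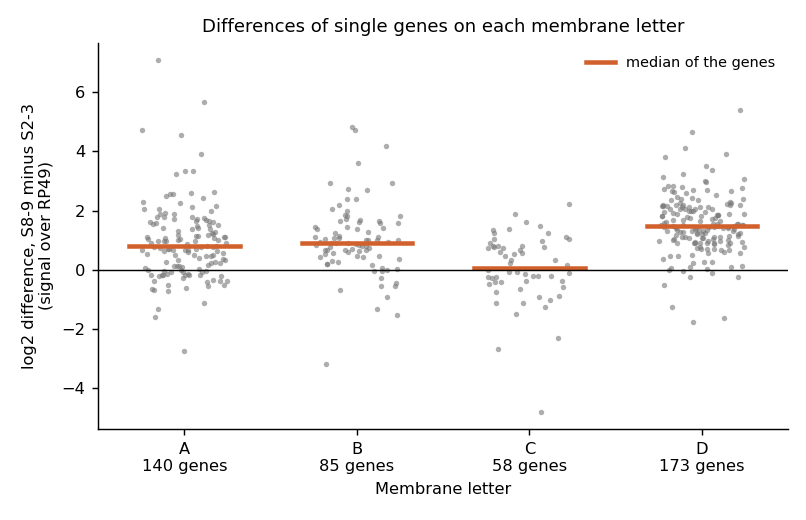
Log2 difference of every gene measured in both intervals on a membrane letter (1 point per gene), with the median as a bar. The medians are 0.79, 0.92, 0.07 and 1.47 on A to D, so the shift was smallest on C and largest on D.

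Genes of cell adhesion and the immunoglobulin superfamily held the largest rise. Amalgam (Ama, CG2198), a secreted immunoglobulin-superfamily protein, had levels of 0.0768, 0.0627, 0.132 and 0.485 times RP49 on A to D at S2-3. At S8-9 it reached 10.4 on A and 7.24 on D, with no value kept on B and C. All S8-9 levels lay above all S2-3 levels. The difference was 5.49 (SE 0.98, n = 2, adjusted p = 0.041), a 45.0-fold rise, with letters at 7.08 and 3.90. Under the 75th percentile scaling it was 4.00 and did not pass (adjusted p = 0.054). The call was also lost without letter B (adjusted p = 0.097) or C (adjusted p = 0.056), although neither holds a difference of Ama and its mean stayed at 5.49. The rise rests on A and D alone, and without either of them Ama could not be tested.

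Neurotactin (Nrt, CG9704), the transmembrane partner that Ama binds, stood at 0.101, 0.113 and 0.341 on A, B and D at S2-3 and at 0.619, 0.869, 0.389 and 0.991 on A to D at S8-9. Its rise was 2.37 (SE 0.37, n = 3, adjusted p = 0.027), and the groups did not overlap. Under the 75th percentile scaling Nrt was at 0.95 (adjusted p = 0.22). Lachesin (Lac, CG12369), a membrane-anchored immunoglobulin protein needed for tracheal tube shape, stood at 0.140, 0.181 and 0.162 on A, B and D and later at 0.667, 0.829 and 1.85. Lac rose by 2.65 (SE 0.37, n = 3, adjusted p = 0.026) and kept 1.24 (adjusted p = 0.045) under the 75th percentile scaling.

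Axon guidance receptors of the same superfamily were less clear. The Roundabout receptor gene lea (robo2) had a mean of 1.33 (SD 2.68, n = 2, adjusted p = 0.41), with -0.57 on C and 3.22 on D, where it went from 0.162 to 1.52. beat-IIIc, of a family that controls the defasciculation of motor axons, was at 0.43 (adjusted p = 0.30). In all, 7 of the 21 listed adhesion genes were printed, 5 were tested and 3 were higher, beside 30.1% of all features, with a median of 2.37 beside 1.01 over all features tested.

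Of the Bearded family, small proteins that inhibit the ubiquitin ligase Neuralized and thereby limit Notch signaling, 3 of 8 listed members were printed, all from the same gene complex, where RefSeq places 1 gene between Tom and each of BobA and Ocho. Tom (CG5185) had levels of 0.138, 0.165 and 0.151 on A, B and D at S2-3 and of 3.68, 4.35 and 6.43 at S8-9. The intervals were far apart on every letter measured. The rise was 4.96 (SE 0.27, n = 3, adjusted p = 0.0079), or 31.1-fold, the lowest adjusted p of the genes tested. It was 3.54 (adjusted p = 0.0018) under the 75th percentile scaling and 4.96 (adjusted p = 0.00026) without pairing by letter.

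Ocho (CG3396) went from 0.0962 and 0.0771 on A and B to 0.469 and 0.588, with 0.291 and 1.44 on C and D at S8-9 only. It rose by 2.61 (SE 0.36, n = 2, adjusted p = 0.033). The third member, BobA (CG12487), did not pass. On A it went from 0.0747 to 0.712, a difference of 3.25, and on D from 0.863 to 1.64, a difference of 0.93, for a mean of 2.09 (SE 0.74, n = 2, adjusted p = 0.12). D carries 11 clones of BobA, and the 7 measured there in both intervals ranged from 0.37 to 3.33, all above 0. Their median was 2.51. The median of the 3 members was 2.61, beside 1.01 over all features.

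Few other Notch pathway genes could be tested. Gp150, a leucine-rich-repeat transmembrane protein that modulates Notch signaling in the eye, differed by 1.55 (SE 0.45, n = 3, adjusted p = 0.068), with S8-9 levels of 0.381, 0.233 and 1.54 on A, C and D. The metalloprotease gene kuz, whose product cleaves Notch, passed in 0 of 8 spots at S2-3 and measured 0.173, 0.150 and 0.491 on A, C and D at S8-9, at least 3.83-fold higher. This bound sets the mean level at S8-9, over the letters kept there, against a limit on the S2-3 membranes of the same letters. The limit is the lowest level that passed or the gene's own signal if higher. That own signal was under the signal rule, so the true level at S2-3 can lie above the limit. In every bound given here, "at least" is thus relative to this limit and is not strict. Genes enter because S8-9 passed and S2-3 did not, so the direction is fixed by that choice. Letters without a kept S8-9 level are left out, so the bound covers only the letters kept. It has no p-value.

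**Figure D3:**
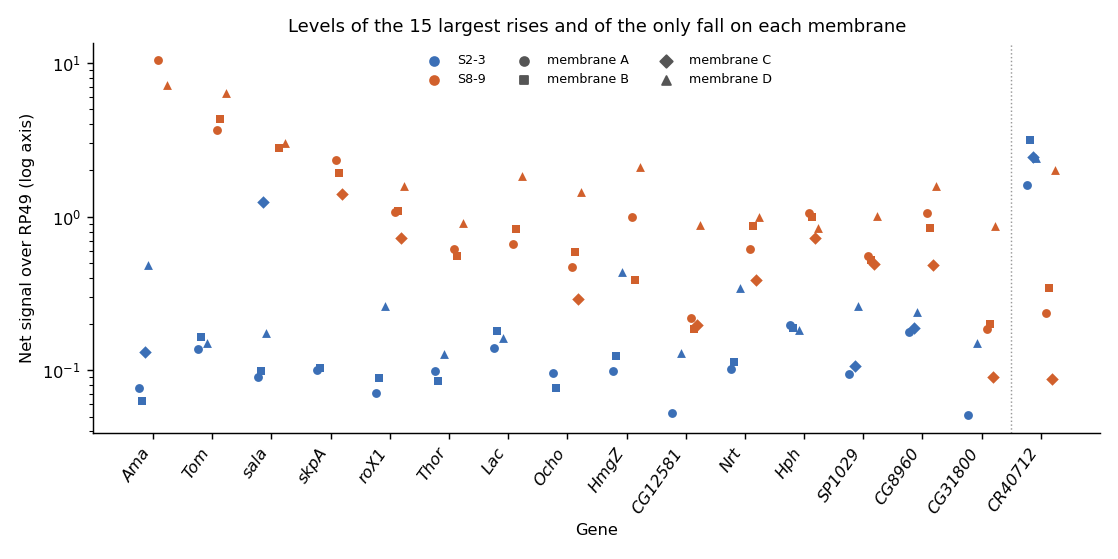
Level of the 15 genes with the largest rises past the test, and right of the dotted line the only gene that fell, on each membrane (net signal over RP49, log axis, blue S2-3, orange S8-9, symbols for membranes A to D). Tom lies between 0.138 and 0.165 at S2-3 and between 3.68 and 6.43 at S8-9, and CR40712 keeps 2.02 on D while it drops to 0.0883 on C.

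Non-coding RNAs moved in both directions. roX1 (CR32777), the RNA that guides the dosage compensation complex to the male X chromosome, stood at 0.0710, 0.0893 and 0.262 on A, B and D at S2-3. At S8-9 it was 1.08, 1.10, 0.732 and 1.57 on A to D. No S2-3 level reached the lowest S8-9 level, and the rise was 3.37 (SE 0.36, n = 3, adjusted p = 0.016), with 1.96 (adjusted p = 0.046) under the 75th percentile scaling. Its clones moved alike, between 3.70 and 4.32 on A for 3 clones, between 3.39 and 3.76 on B for 3 and between 1.61 and 3.58 on D for 6.

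Of the protein subunits of that complex only msl-2 was printed, and it was measured in both intervals on D alone, at 0.400 and then 0.946. Sex lethal (Sxl), the sex-determination switch that blocks msl-2 translation in females, went from 0.0866 and 0.206 on A and D to 0.279 and 0.567. It rose by 1.57 (SE 0.31, n = 2, adjusted p = 0.0499), just inside the threshold, and stood at 0.08 (adjusted p = 0.90) under the 75th percentile scaling.

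CR40712, without a symbol in RefSeq, was the only gene called lower. Its levels at S2-3 were 1.60, 3.14, 2.45 and 2.42 on A to D and those at S8-9 were 0.236, 0.344, 0.0883 and 2.02. The groups were separate on A to C, while on D the difference was -0.26. The mean of -2.75 (SE 0.75, n = 4, adjusted p = 0.049) became -3.96 (adjusted p = 0.0045) under the 75th percentile scaling. Among its 4 clones on D, the 3 measured in both intervals ranged from -0.89 to 1.78, and 2 of them were above 0. The clones did not move together there, and their median of 1.14 had the opposite sign to the difference of the gene. The call was lost without letter A (adjusted p = 0.057), B (adjusted p = 0.15) or C (adjusted p = 0.094), with means from -2.75 to -2.07.

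The other non-coding genes did not pass. CG34335, a long non-coding RNA gene in RefSeq, lay below 0 on all 4 letters, at -0.53 (SE 0.27, adjusted p = 0.18). Under the 75th percentile scaling it was lower, at -1.75 (adjusted p = 0.0084). CR32477, the most heavily sampled gene with 15 clones on A to C and 27 on D, had a mean of 0.42 (SE 0.31, n = 4, adjusted p = 0.32). Its 9 clones measured in both intervals on A ranged from -2.75 to 2.12 and 8 of them were above 0. The 5 measured on B ranged from 0.83 to 1.87, all above 0. On D 10 were measured, from -0.33 to 3.07, with 9 above 0. The gene as a whole differed by -0.37, 0.21 and 0.60 on A, B and D. The stress-induced RNA Hsr-omega (CR31400) went from 0.0808 to 0.824 on A and from 3.59 to 1.51 on D, for a mean of 1.05 (SD 3.25, n = 2, adjusted p = 0.58).

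**Figure D4:**
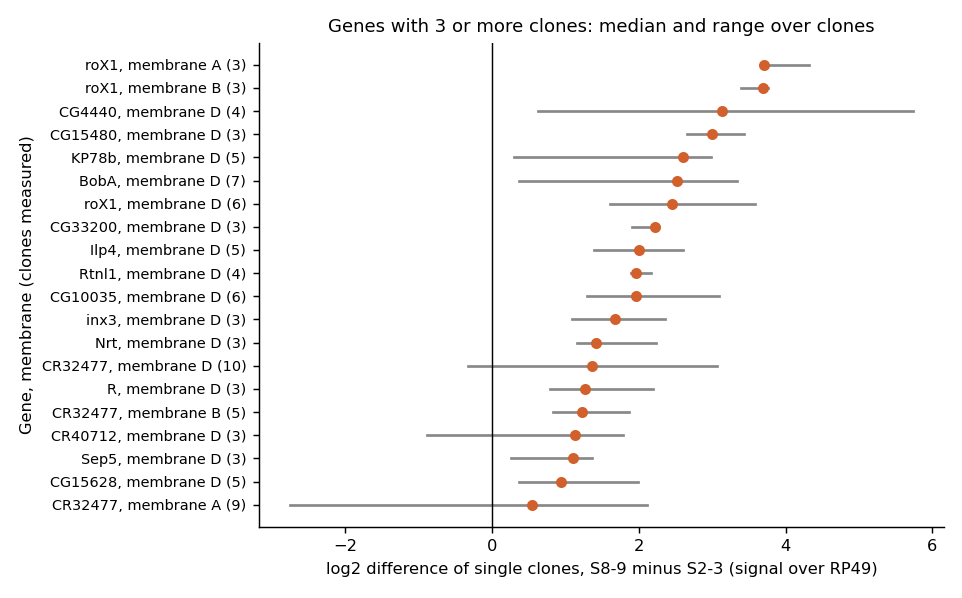
Log2 differences of single clones for genes with at least 3 clones measured in both intervals on a membrane, with the median as a point and the range as a line. In 17 of the 20 sets every clone was above 0, and the sets of CR32477 on A and D and of CR40712 on D crossed 0.

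Genes that pattern the axis and the ectoderm rose in part. The gap gene Krüppel (Kr, CG3340), a zinc-finger repressor later used in the amnioserosa, stood at 0.0835, 0.105 and 1.07 on A, B and D at S2-3 and at 0.360, 0.433, 0.223 and 4.18 on A to D at S8-9. The level on D was far above that on the other letters in both intervals, so the groups overlapped while the difference within a letter was steady, at 2.04 (SE 0.21, n = 3, adjusted p = 0.016). Without pairing by letter it was 1.55 (adjusted p = 0.34). The segment-polarity gene naked cuticle (nkd), a Wingless antagonist, differed by 0.83 (adjusted p = 0.29). The pair-rule genes odd, slp1 and h were measured in both intervals on D alone, with differences of 1.53, 1.62 and 1.33.

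Homothorax (hth, CG17117), the partner that brings the Hox cofactor Extradenticle into the nucleus, went from 0.132, 0.115 and 0.271 on A, B and D to 0.284, 0.462 and 1.24, with 0.187 on C at S8-9. Its rise of 1.77 (SE 0.32, n = 3, adjusted p = 0.033) lay above the library's shift by 0.83. The Hox gene Antennapedia (Antp), the other tested member of its list, was at 0.85 (adjusted p = 0.089), below the median gene.

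Patched (ptc, CG2411), the Hedgehog receptor, stood at 0.104, 0.134 and 0.180 on A, B and D and later at 0.461, 0.421, 0.163 and 0.450 on A to D. It rose by 1.71 (SE 0.27, n = 3, adjusted p = 0.027), and the low level on C overlapped the earlier levels. The nuclear protein split ends (spen) differed by 1.52 (SE 0.35, n = 2, adjusted p = 0.060). The relative of Patched, Ptr, passed in 0 of 10 spots of S2-3, and its S8-9 levels of 0.160, 0.131 and 0.482 on A, C and D made it at least 3.93-fold higher.

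Receptor tyrosine kinase and mesoderm genes gave values above the shift that did not pass. The FGF receptor adaptor stumps went from 0.107 and 0.158 on B and D to 0.290 and 0.725, a difference of 1.82 (SE 0.37, n = 2, adjusted p = 0.055). Egfr, the receptor for EGF ligands, passed in 0 of 8 spots at S2-3 and measured 0.285, 0.104 and 0.448 on B, C and D at S8-9, at least 2.77-fold higher. The gene CG4500 was at 1.01 (adjusted p = 0.076). Ilp4, an insulin-like peptide, did rise, from 0.128, 0.117, 0.161 and 0.328 on A to D to 0.510, 0.613, 0.330 and 1.22, by 1.83 (SE 0.28, n = 4, adjusted p = 0.018).

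Of 9 listed genes of the dorsal ectoderm and amnioserosa that were printed, 5 were tested and Kr alone was higher. The list's median of 0.42 lay below the 1.01 of all features. The BMP antagonist sog went from 0.133 to 0.573 on D, its only letter, and the LIM-homeodomain gene tup from 0.133 to 0.195 on A.

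Markers of other cell types were thinly represented. Of 9 listed hemocyte markers only the scavenger receptor gene Sr-CII was printed, and of 7 pole cell and germ plasm markers none. Sr-CII was tested in no fit, as only A measured it at S2-3. Its level there was 0.0631, and at S8-9 it was 3.22, 4.51, 2.06 and 12.8 on A to D. The difference on A, 5.69, was the largest of the 81 genes with 1 letter.

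Among uncharacterized genes with predicted secreted or membrane proteins, 11 of 19 were tested, 6 were higher and none lower, beside 30.1% and 0.699% of all features, with a median of 1.44 beside 1.01 over all features. All genes of this list are among those that the study listed as raised on these samples, so its direction is not independent evidence. The largest rise was that of sala (CG4922), a gene next to spalt, from 0.0991 and 0.175 on B and D to 2.81 and 3.01. This came to 4.46 (SE 0.37, n = 2, adjusted p = 0.018), or 22.1-fold. On C, however, sala measured 1.24 at S2-3 against 0.0910 to 0.175 on the other letters, and it had no value on A and C at S8-9.

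CG8960 went from 0.178, 0.190 and 0.241 on A, C and D to 1.06, 0.485 and 1.58, with 0.848 on B at S8-9, and rose by 2.21 (SE 0.37, n = 3, adjusted p = 0.028). CG5059, which RefSeq names BNIP3, rose by 2.10 (SE 0.33, n = 3, adjusted p = 0.027) and CG31253 by 1.78 (SE 0.28, n = 3, adjusted p = 0.027). Among the genes called, CG17734 had the smallest SD between letters. Its levels of 0.300, 0.215, 0.189 and 0.600 on A to D became 0.776, 0.526, 0.490 and 1.60. Its 4 differences had an SD of 0.05 around 1.36 (SE 0.17, adjusted p = 0.016), although the level on D at S2-3 was above those on B and C at S8-9.

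CG13427 shows the opposite case. It was at 0.140 and 0.134 on A in the 2 intervals, while on D it went from 0.143 to 3.58, so that the mean of 2.29 (SD 3.33, n = 2, adjusted p = 0.29) did not pass. CG13427 and CG8960 also belong to the cellularization list, of which 5 of 13 printed genes were tested and 3 were higher, beside 30.1% of all features. The list's median was 1.44, and 0.02 under the 75th percentile scaling. Its printed genes are all among those that the study listed as raised on these samples, so its direction is not independent evidence. CG12420 rose by 1.44 (SE 0.23, n = 3, adjusted p = 0.027) and the protein kinase gene KP78b by 1.14 (SE 0.25, n = 3, adjusted p = 0.037). On D KP78b differed by 0.92, while its 5 clones measured there in both intervals had a median of 2.60. SNCF of the same list was at -0.87 (SD 1.25, n = 2), near-even on B and lower on D, where it went from 4.93 to 1.47. CG4440 was bright at S8-9, at 8.33, 6.95, 4.57 and 7.57 on A to D, but D alone gave an S2-3 level, 1.59.

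No tested gene of the actin cytoskeleton or of germ band extension passed. Profilin (chic), which feeds actin polymerization, stood at 1.71, 1.33, 0.812 and 0.667 on A to D and later at 1.51, 0.679 and 2.07 on A, C and D. It was lower on A and C and higher on D, for a mean of 0.40 (SD 1.07, n = 3, adjusted p = 0.54). The microtubule-binding protein cornetto (corn) differed by 1.99 (SE 0.58, n = 2, adjusted p = 0.090). Of the germ band extension list, with 25 genes, 3 were printed. The actin regulator ena and the kinase Src42A, the other two, were measured in both intervals on D alone, with differences of 3.07 and 3.00.

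Of 4 ubiquitin and SUMO genes tested 2 were higher, with a list median of 0.93, or -0.39 under the 75th percentile scaling, beside 1.01 over all features relative to RP49. SkpA (skpA, CG16983), the adaptor of SCF ubiquitin ligases, went from 0.101 and 0.104 on A and B to 2.35 and 1.91, with 1.41 on C at S8-9. The rise was 4.37 (SE 0.32, n = 2, adjusted p = 0.016), or 20.7-fold, and 3.25 (adjusted p = 0.010) under the 75th percentile scaling. D gave no value in either interval, so this gene rests on A to C, which share a single clone of it.

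The small modifier SUMO (smt3, CG4494) started high, at 1.96, 1.91, 1.12 and 2.04 on A to D, and reached 4.52, 5.09, 1.96 and 3.80. It rose by 1.08 (SE 0.20, n = 4, adjusted p = 0.027), close to the library's shift, and lay at -0.13 under the 75th percentile scaling. The SUMO-activating subunit Aos1, also bright at S2-3 with 2.09 to 3.41, was at 0.35 (adjusted p = 0.52), and the ubiquitin ligase adaptor DDB1 at 0.78 (adjusted p = 0.28).

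Thor (CG8846), the inhibitor of cap-dependent translation that binds eIF4E, stood at 0.0997, 0.0852 and 0.129 on A, B and D and later at 0.612, 0.554 and 0.912. The 3 letters differed by an SD of only 0.10 around a rise of 2.71 (SE 0.22, adjusted p = 0.016), a 6.56-fold change. It kept 1.30 (adjusted p = 0.045) under the 75th percentile scaling. The elongation factor subunit Ef1gamma, in the same list, was at -0.57 (SD 0.91, n = 3, adjusted p = 0.34), even on A and B and lower on D.

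Of 5 chromatin protein genes tested 3 were higher, beside 30.1% of all features. The HMG-box protein HmgZ (CG17921) went from 0.0989, 0.124 and 0.435 on A, B and D to 0.991, 0.387 and 2.12, a rise of 2.42 (SE 0.41, n = 3, adjusted p = 0.028) with groups that overlapped between letters. The nucleosome-remodeling ATPase Iswi rose by 1.34 (SE 0.27, n = 4, adjusted p = 0.028) and the histone-binding protein Df31, at 3.69 to 5.34 on A, B and D at S2-3, by 1.15 (SE 0.25, n = 3, adjusted p = 0.037). The histone deacetylase Rpd3, outside the list, rose by 1.39 (SE 0.21, n = 4, adjusted p = 0.018). The median of the list, 1.16, was near the 1.01 of all features.

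Further genes complete the 15 largest rises. The prolyl hydroxylase Hph (CG31543), which marks the hypoxia factor Sima for degradation, went from 0.197, 0.190 and 0.184 on A, B and D to 1.06, 0.994 and 0.841, with 0.723 on C, by 2.33 (SE 0.22, n = 3, adjusted p = 0.016). The aminopeptidase gene SP1029 (CG11956) went from 0.0941, 0.106 and 0.262 on A, C and D to 0.551, 0.493 and 1.01, with 0.519 on B, by 2.24 (SE 0.25, n = 3, adjusted p = 0.016). In both the groups were apart on every membrane. CG12581 and CG31800, without a known role, rose by 2.41 (SE 0.37, n = 2, adjusted p = 0.035) and 2.21 (SE 0.36, n = 2, adjusted p = 0.036), each on A and D.

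Housekeeping groups lay low among the lists. Of 8 RNA processing genes tested none passed, with 5 above 0 and a median of 0.17, and of 6 mitochondrial and secretory genes CG17734 alone was higher, with a median of 0.10. Relative to the 75th percentile, several of them were lower, among them the RNA-binding protein Hrb98DE at -1.31 (adjusted p = 0.045), the nucleolar protein Nop56 at -1.62 (adjusted p = 0.046), the chaperone Pdi at -1.60 (adjusted p = 0.029), calmodulin (Cam) at -1.59 (adjusted p = 0.036) and the ATP synthase subunit ATPsyn-d at -1.94 (adjusted p = 0.042). Relative to RP49 the same genes lay at 0.11, -0.13, -0.39, -0.18 and -0.45 and none passed.

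No cell cycle gene of 3 tested passed. Cyclin B3 (CycB3) was at 0.64, the growth regulator scyl at 0.41 and the arginine methyltransferase gene csul at 0.25. CG14939, which RefSeq names CycY after cyclin Y, was under the signal rule in all 8 spots at S2-3 and bright at S8-9, at 1.98, 1.31 and 4.58 on B, C and D. Against its limit at S2-3 it was at least 18.2-fold higher, the largest bound of the 11 genes with one in this direction. The solute carriers CG5002 and CG15095 were at 1.33 (adjusted p = 0.12) and 1.32 (adjusted p = 0.097).

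**Figure D5:**
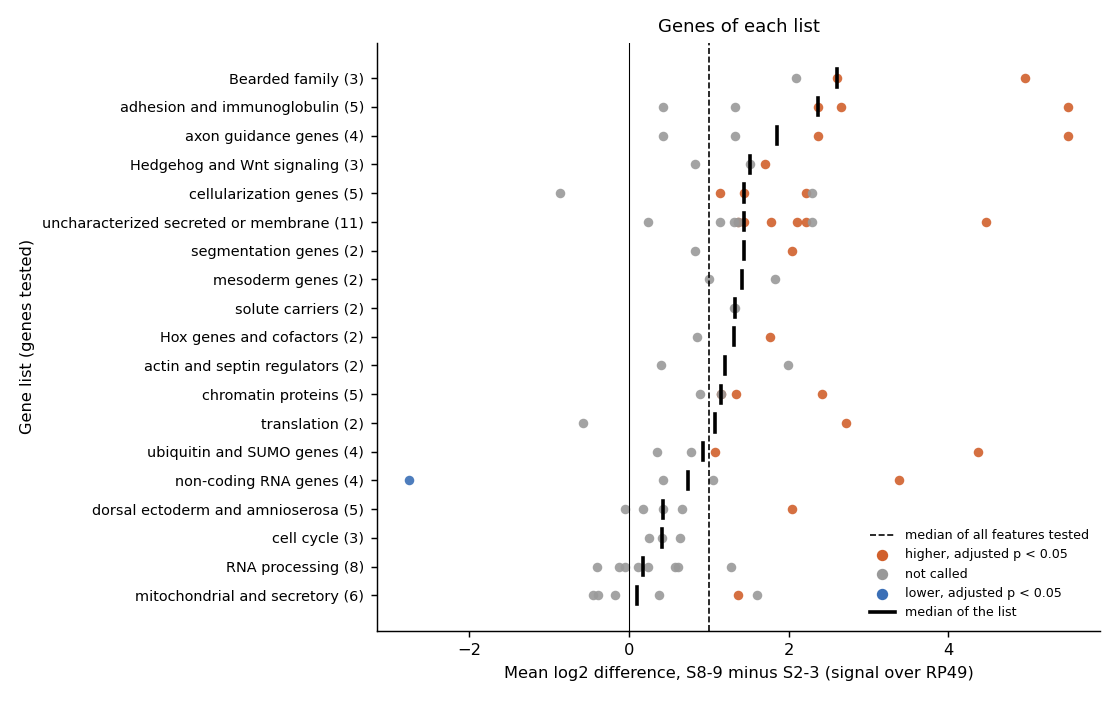
Mean log2 difference of each tested gene by list (signal over RP49), with lists of at least 2 tested genes, the median of a list as a bar and the median of all features tested, 1.01, dashed. The medians of the Bearded list (2.61) and the adhesion list (2.37) lie right of that line, and that of the RNA processing list (0.17) left of it.

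Whether the levels of the 2 intervals overlapped over all membranes was read separately. Every S8-9 level lay above every S2-3 level in 33 genes of 132, among them 19 of the 37 called higher, beside 26.6% of all features tested. In 0 genes did every S8-9 level lie below every S2-3 level. Without pairing by letter, 13 of these 19 genes stayed higher, and CG5059 (adjusted p = 0.074), Rpd3 (adjusted p = 0.079), CG12420 (adjusted p = 0.15), CG12581 (adjusted p = 0.18), sip2-PE (adjusted p = 0.18) and kis (adjusted p = 0.29) did not. Of the other 18 genes called higher, such as Kr, hth, ptc and smt3, 0 passed without pairing.

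The remaining 127 genes had no test. Of these, 81 were measured in both intervals on 1 letter, 60 of them on D with a median of 1.74, 17 on A with a median of 1.28 and 4 on C with a median of -1.01. Another 28 had a kept level at S8-9 only and 6 at S2-3 only, 11 had both without a shared letter, and trus had neither. Of the genes under the signal rule on every S2-3 membrane, bounds of at least 3.29-fold for CG13045, 2.79-fold for Trn (CG7398, transportin), 2.76-fold for CG1347 (Atg17 in RefSeq) and 2.64-fold for the immunoglobulin-domain gene dpr19 follow those given above. In the opposite direction CG11092, a nucleoporin gene, was at least 1.98-fold and CG14915 at least 1.09-fold lower at S8-9, each from A and B.

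The genes that the study listed as raised in some later interval, 118 of the 259 printed, were chosen on these same samples and are no independent evidence. Of the 72 tested, 22 were higher and 1, CR40712, was lower, with a median of 1.14. That share was close to the 30.1% of all features called higher. Of the 60 other genes tested, 15 were higher, with a median of 0.80. Ama, Lac and Hph were among these 15.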

How the data were processed

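Spot intensities were used as deposited by the authors, who scanned phosphor screens and measured them in VersArray Analyzer. Each spot has a mean signal, a local background with its SD, and the difference as net signal (0 where not above background), in arbitrary units and without normalization. Clones whose duplicate spots had a coefficient of variation over 0.5 were dropped, and the study's further filter on a spot quality score was not applied. A table with 1 value per interval was not used. Gene names follow the files, of which 253 of 259 matched the RefSeq gene table (Release 6 assembly of the genome), used for names and neighbors only.

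Within-letter log2 differences were tested with lmFit and eBayes of limma 3.58.1 in R 4.3.3, with the letter as the pairing the comparison was defined by, and the fit was tested on simulated data. Tables were made in Python 3.11.15 with pandas 2.3.3. SAM was written anew, with missing values taken from the 10 nearest features. Named genes are the 15 largest rises and up to 10 falls called with 1 sign on all letters, the 8 largest bounds at S8-9 and 5 at S2-3, up to 4 called members per list and every tested member of lists with at most 4. Oda, Sxl, Ilp4, Rpd3, CG13427, SNCF, Hrb98DE, Nop56, Pdi, Cam, ATPsyn-d, sip2-PE and kis were added after their values were seen. So were crp, CG6954, fj, CG31163, CG34335 and all genes given for a single letter, Sr-CII and CG4440 among them. The members, lists and tests were chosen with earlier results of these data known.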

Additional observations from a re-analysis of the deposited data

Results flagged for a closer look

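In 6 of 55 sets of 4 membranes of 1 interval, 1 membrane stood apart from the other 3 by Dixon's ratio, which chance alone gives in about 1 of 20 sets. Membrane D was the high one at S8-9 for CG12581, at 0.881 times RP49 against 0.186 to 0.218 elsewhere, for SP1029, at 1.01 against 0.493 to 0.551, and for scyl, at 1.74 against 0.439 to 0.546. Membrane C was the low one for ptc at S8-9, at 0.163 against 0.421 to 0.461, and at S2-3 for smt3, at 1.12 against 1.91 to 2.04, and for Pdi, at 0.569 against 0.779 to 0.820. D was also the membrane with the largest share of spots passing at S8-9 (90.2%) and C the one with the smallest at S2-3 (22.7%), and whether that share moves these values was not tested.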

How the results depend on the processing

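Of 132 genes, 37 were higher and 1 was lower relative to RP49, with a median of 0.94. Other scales gave 12 higher and 1 lower with RP49, actin and tubulin together (median 0.36), 2 and 0 with dap on A to C (median 0.36), 6 and 14 with the 75th percentile (median -0.32), 40 and 1 with the mean of RP49, and 0 and 0 with quantile normalization (median -0.0044). On C the spiked RNA dap passed in only 0 of 10 spots at S2-3 and 3 of 10 at S8-9. The dap scale there rests on spots mostly under the signal rule. Under normexp 59 were higher, with a signal rule of 2 background SDs 4, with 52 genes tested, with no signal rule 46, with no filter on duplicates 51, with 3 letters 40 and with the median of clones 42 and 0 lower. Without a replicate block 16 were higher and 1 lower over 8 membranes and 8 and 0 over 20 membranes, and with the replicate block over 20 membranes 55 and 1. SAM called 83 higher and 1 lower of 142 genes, 36 of the 37 among them. Leaving out 1 letter gave 0 to 38 higher, with 0 without B, 5 without A and 20 without D, and 0 to 1 lower. A limit of 1 on the log2 scale kept 36 and 1. Deviations of same-letter membranes from their interval mean correlated at 0.34, 0.17, 0.05 and 0.41 on A to D. Unlike letters ranged from -0.31 (S2-3 on D with S8-9 on A) to 0.33 (S2-3 on B with S8-9 on A). S2-3 on A with S8-9 on C gave 0.31, while every unlike pair with D lay below 0. The letter is thus a shared layout rather than a shown pairing of embryos. Every gene called higher under the scale of RP49 with actin and tubulin, of the 75th percentile or of dap was among the 37.

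Over the named genes and all settings, the direction and call were kept in 645 cases, the call was lost in 212 and gained in 35, and the sign changed in 61. Among the named genes counted, the sign changes were of genes that had not passed, KP78b, smt3, Df31 and Oda excepted, and the cause was not tested. Other genes called higher were not counted here and also lay below 0 with the 75th percentile. They were crp (-0.32), CG6954 (-0.29), kis (-0.22), fj (-0.18), CG31163 (-0.10) and sip2-PE (-0.022). The values that follow are of the genes counted. With the 75th percentile the values changed sign for Hrb98DE (-1.31), csul (-1.24), CycB3 (-0.85), Aos1 (-0.85), scyl (-0.80), chic (-0.79), CR32477 (-0.79), beat-IIIc (-0.76), DDB1 (-0.64), Hsr-omega (-0.44), Oda (-0.43), nkd (-0.37), KP78b (-0.28), Df31 (-0.27), CG5002 (-0.16), smt3 (-0.13) and Antp (-0.096). With quantile normalization they were csul (-1.07), CycB3 (-0.56), beat-IIIc (-0.48), CR32477 (-0.41), Hsr-omega (-0.41), DDB1 (-0.38), Hrb98DE (-0.35), scyl (-0.26), KP78b (-0.14), nkd (-0.11) and Aos1 (-0.0026). With RP49, actin and tubulin they were csul (-0.47), Aos1 (-0.44), chic (-0.39), beat-IIIc (-0.36), Hrb98DE (-0.35), scyl (-0.16), CR32477 (-0.15) and CycB3 (-0.075), and with dap chic (-0.99), Aos1 (-0.89), nkd (-0.63), beat-IIIc (-0.62), scyl (-0.33), Hrb98DE (-0.27), CR32477 (-0.15) and Ef1gamma (0.099). With 2 background SDs they were CycB3 (-1.37), CR32477 (-0.43) and Pdi (0.073), with no duplicate filter CR32477 (-0.94) and SNCF (0.25), with no signal rule csul (-0.17), with normexp Nop56 (0.20), with no replicate block CycB3 (-0.14) and Cam (0.010) in both fits, and with the replicate block over 20 membranes Hrb98DE (-0.066) and Nop56 (0.050). With 1 letter left out the values ran from -0.22 to 0.73 for chic, -0.12 to 0.59 for Aos1, -0.28 to 0.0072 for Cam and -0.42 to 0.38 for Hrb98DE. Blank spots passed in up to 11.8% of cases on a membrane, and 127 genes had no test.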
